A study of Mus musculus with 12 samples.

Results

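The 9 genes described here encode feedback inhibitors and transcriptional outputs of the Ras-ERK pathway: Spry1, Spry2 and Spry4 (Sprouty proteins), Spred1 and Spred2, the ETS-family factors Etv4 and Etv5, Ccnd1 (cyclin D1) and Phlda1. They were chosen by name, as rows of the deposited value table whose platform gene symbol was exactly one of these, out of 22180 symbols. All 9 were found, each with 1 row except Etv5, which had 2, and for Etv5 the row with the higher mean over the 12 arrays was used. Of these, 8 were above the limit for dim rows on at least 3 arrays and were tested among 14079 genes. Spry4 was above that limit on 0 of 12 arrays and was not tested, and Etv4 was above it on 6.

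The cells were bone marrow-derived macrophages of mice, cultured with L929-conditioned medium, and their RNA was measured on Affymetrix Mouse Gene 2.1 ST arrays. The 4 groups, with 3 arrays each, were Rasgef1b knockout cells with R848 for 4 h, knockout cells with saline, wild-type cells with R848 for 4 h, and wild-type cells with saline. The knockout cells carry a floxed Rasgef1b gene and Vav-iCre, a recombinase driven by a promoter active in blood-forming cells. The labels name no group with Cre and an intact gene, so effects of the recombinase and of the deletion cannot be told apart. The labels give neither the dose of R848, a small molecule that activates Toll-like receptor 7 in endosomes, nor a time for saline, an age or a strain. Since they do not name the animal or culture behind each replicate, p-values measure only how far these arrays spread, and that spread may be technical. Levels are RMA log2 intensities, in which a difference of 1 is a doubling, and they are compared only within a row. The samples are bulk RNA, in which fewer cells of a type and less RNA per cell cannot be told apart.

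Receptor tyrosine kinases such as the CSF1 receptor, on which macrophages depend for survival and growth, signal through Ras, Raf and MEK to the kinase ERK. Sprouty proteins, first known from a Drosophila mutant with extra airway branches, and the related Spred proteins are made in response to this signal and restrain it between the receptor and Raf, Spred proteins by bringing the Ras GTPase-activating protein neurofibromin to the membrane. ERK also raises the transcription of ETS factors of the PEA3 group and of Ccnd1, whose product drives the G1 phase with CDK4 and CDK6. Toll-like receptors reach ERK by another route in macrophages, through the kinase Tpl2, encoded by Map3k8.

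Promoter windows are shown for the members that moved together with R848, with Spred1 as a paralogue that moved the other way. Each holds the 250 bases before a gene start (RefSeq, GRCm38.p6), written 5′ to 3′ on the gene's strand. Capitals mark GGAA or its complement TTCC, the core that ETS factors recognise.
Spry2 (chr14:105896820-105897069, - strand): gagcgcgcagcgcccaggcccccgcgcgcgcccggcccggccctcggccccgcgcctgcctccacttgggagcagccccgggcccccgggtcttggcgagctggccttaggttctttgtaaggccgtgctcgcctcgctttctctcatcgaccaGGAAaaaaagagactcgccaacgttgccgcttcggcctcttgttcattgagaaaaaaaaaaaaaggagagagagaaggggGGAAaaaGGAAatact
Spred2 (chr11:19924192-19924441, + strand): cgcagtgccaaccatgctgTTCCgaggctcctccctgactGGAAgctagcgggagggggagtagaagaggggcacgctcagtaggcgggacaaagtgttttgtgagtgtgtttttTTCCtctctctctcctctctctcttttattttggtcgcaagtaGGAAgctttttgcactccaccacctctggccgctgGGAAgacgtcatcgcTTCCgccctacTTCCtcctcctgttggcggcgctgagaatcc
Etv5 (chr16:22439571-22439820, - strand): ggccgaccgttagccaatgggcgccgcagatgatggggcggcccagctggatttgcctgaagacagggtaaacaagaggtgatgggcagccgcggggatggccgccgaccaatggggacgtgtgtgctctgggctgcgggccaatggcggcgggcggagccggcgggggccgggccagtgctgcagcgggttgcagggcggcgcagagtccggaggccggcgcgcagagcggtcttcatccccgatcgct
Etv5 second start (chr16:22438369-22438618, - strand): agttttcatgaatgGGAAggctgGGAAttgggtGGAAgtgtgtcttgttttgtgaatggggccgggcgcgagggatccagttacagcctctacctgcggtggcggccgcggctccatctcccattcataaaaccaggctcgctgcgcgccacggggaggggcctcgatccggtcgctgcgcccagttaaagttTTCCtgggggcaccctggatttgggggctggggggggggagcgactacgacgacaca
Spred1 (chr2:117120821-117121070, + strand): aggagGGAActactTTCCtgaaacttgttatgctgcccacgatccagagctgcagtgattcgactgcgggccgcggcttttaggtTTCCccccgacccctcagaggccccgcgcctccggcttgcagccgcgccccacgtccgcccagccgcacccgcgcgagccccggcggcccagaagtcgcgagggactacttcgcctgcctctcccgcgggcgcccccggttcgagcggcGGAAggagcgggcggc
RefSeq promoter windows were matched for 5 members, Spry1, Spry2, Spred1, Spred2 and Etv5, with 6 windows, and Spry4, Etv4, Ccnd1 and Phlda1 are named only. Motifs were searched on both strands: the cyclic AMP response element TGACGTCA, the AP-1 site TGANTCA, TGAATGNA (read by the repressor Capicua), the extended ETS site CCGGAAG, a form of the NF-kB site and the CArG box of serum response factor. None of these 6 motifs was found in the 6 windows. Among mouse promoters they occurred, in that order, in 1.55%, 6.75%, 3.2%, 6.91%, 4.65% and 1.47% of 32851 windows of the same length. That says only that these letters are not in these windows. The GGAA core, searched after these gave no match, is contained in CCGGAAG and in the NF-kB form and occurs in 93.4% of windows, with a median of 3 per window. The Spred2 window held 7, the Spry2 window 3, the Spred1 window 4, the Spry1 window 1, and the windows of Etv5 0 and 4.

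R848 moved the tested members in both directions. Spry2, Spred2, Etv5 and Ccnd1 fell in both genotypes, while Spred1 and Phlda1 rose in both. Thus 6 of 8 passed an adjusted p of 0.05 in knockout cells (limma, Benjamini-Hochberg over all tested genes), where 41.6% of all tested genes did, and 6 of 8 in wild-type cells, where 38.3% did. In each genotype 2 members rose and 4 fell, while 15.6% of tested genes rose and 26.0% fell in knockout cells and 14.6% rose and 23.6% fell in wild-type cells. Of the calls over all tested genes, 37.4% in knockout and 38.3% in wild type were thus higher, and 63.6% and 62.2% were when each array was centred on the median of the tested genes, where the 6 members kept their directions. The 3 R848 and 3 saline arrays did not overlap for 7 of 8 members in each genotype, Spry1 being the additional one, against 48.8% of tested genes in knockout cells and 48.1% in wild-type cells. The median log2 change of the 8 members was -0.34 in knockout cells and -0.56 in wild-type cells, beside -0.03 and -0.02 over all tested genes.

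**Figure D1:**
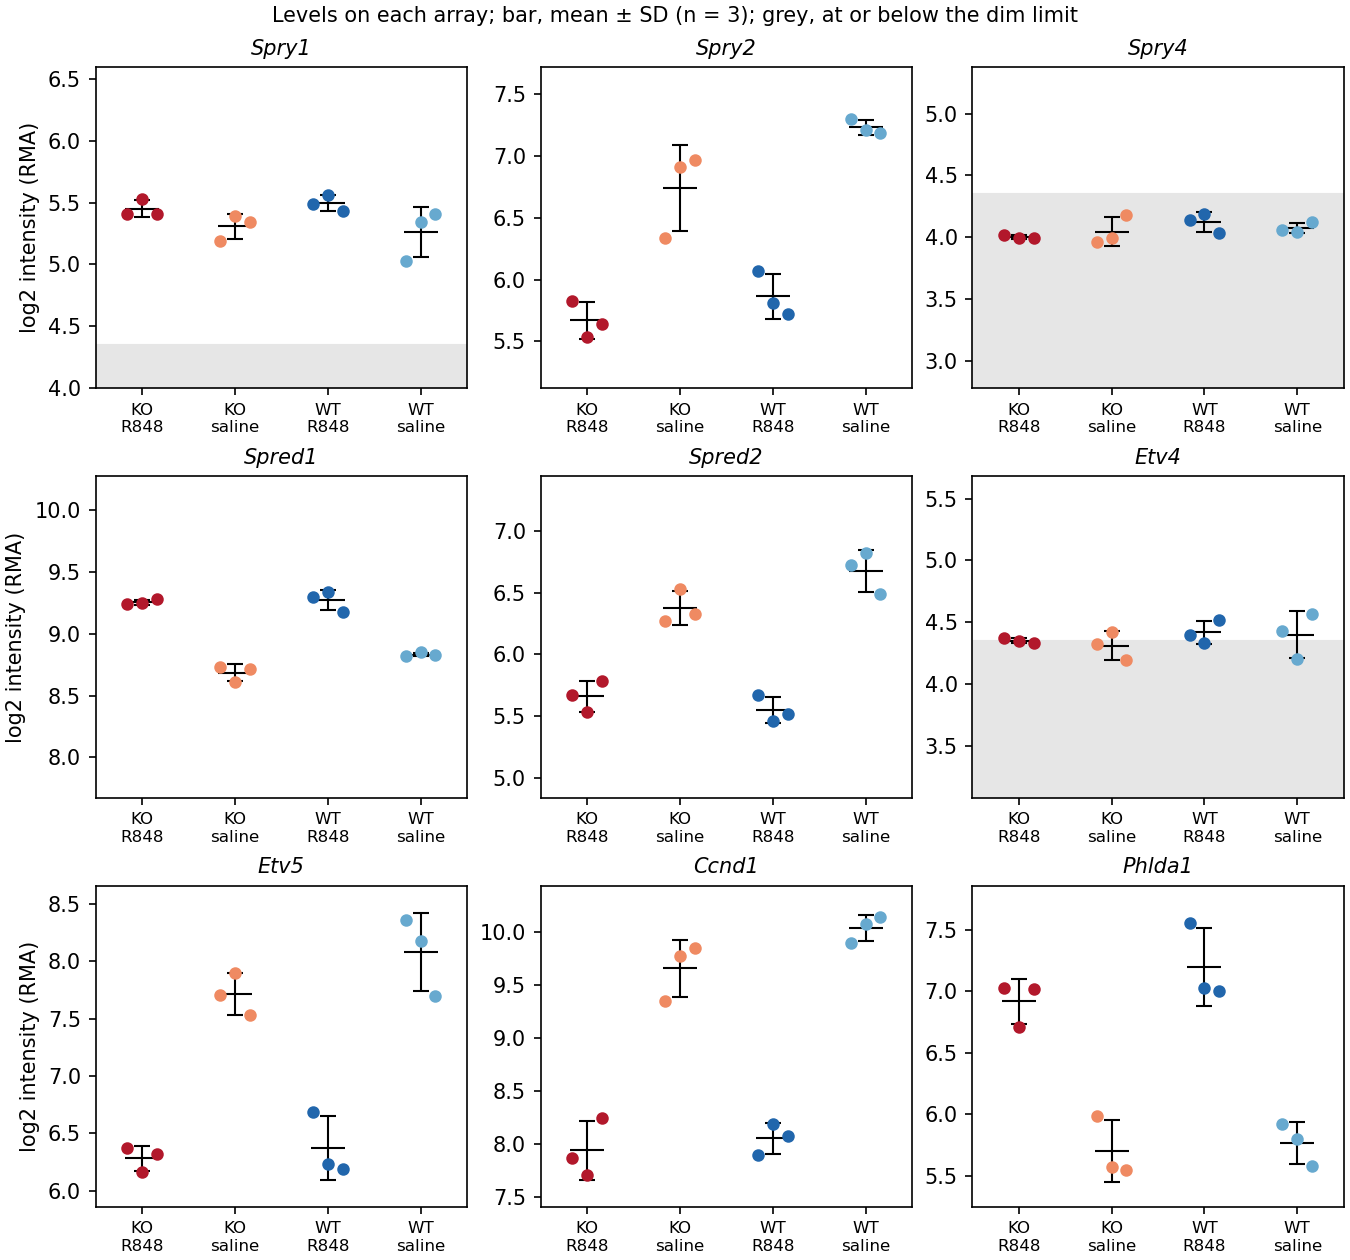
RMA log2 intensity of each of the 9 genes on every array (points), with the mean ± SD of 3 arrays (bars), for knockout (KO) and wild-type (WT) cells with R848 or saline. The grey area lies at or below 4.35, the highest limit for dim rows, and holds all Spry4 points. Axes differ between panels and do not start at 0.

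Among the inhibitors, Spry2, which binds Grb2 and the ubiquitin ligase Cbl, fell with R848. Its levels were 5.83, 5.54 and 5.64 in knockout cells with R848, against 6.34, 6.91 and 6.97 in knockout cells with saline. In wild-type cells they were 6.07, 5.81 and 5.72 with R848, against 7.30, 7.21 and 7.19 with saline. Every R848 array lay below every saline array, and knockout saline replicate 1 was the lowest of the saline arrays. The log2 difference was -1.07 ± 0.14 (SE, n = 3 per group, limma adjusted p = 2.23e-05) in knockout cells and -1.37 ± 0.14 (adjusted p = 2.01e-06) in wild-type cells. The R848 level was therefore 0.476 times the saline level in knockout and 0.388 times it in wild type. Knockout arrays of the same number, whose deviations correlate, differed by -0.51 for number 1, -1.37 for number 2 and -1.33 for number 3. Spry1, its paralogue, stood at 5.41 to 5.53 in knockout cells with R848 and 5.19 to 5.39 with saline, and at 5.43 to 5.56 and 5.03 to 5.41 in wild-type cells. Its differences were 0.14 ± 0.10 in knockout (adjusted p = 0.266) and 0.23 ± 0.10 in wild type (adjusted p = 0.0729), so that it passed in neither genotype. Averaged over genotypes, a contrast in which 50.0% of tested genes passed, Spry1 rose by 0.19 ± 0.07 (limma adjusted p = 0.0325). That call ended without wild-type saline replicate 1 (0.13, adjusted p = 0.0792), wild-type R848 replicate 1 (0.052) or 2 (0.0763), knockout saline replicate 1 (0.0821) or knockout R848 replicate 2 (0.0745). Spry4 lay between 3.96 and 4.19 on all 12 arrays, at or below the limit for dim rows. With no filter its R848 differences were -0.04 in knockout and 0.05 in wild type (limma adjusted p = 0.736 and 0.758).

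The Spred genes moved in opposite directions. Spred2 stood at 5.67, 5.53 and 5.78 in knockout cells with R848, against 6.27, 6.53 and 6.33 with saline. In wild-type cells it stood at 5.67, 5.46 and 5.52 with R848, against 6.72, 6.82 and 6.49 with saline. No R848 array reached a saline array of either genotype. The differences were -0.72 ± 0.10 in knockout (SE, limma adjusted p = 4.56e-05) and -1.13 ± 0.10 in wild type (adjusted p = 4.94e-07). Spred1, the paralogue whose loss causes Legius syndrome in humans, was at 9.24, 9.25 and 9.28 in knockout cells with R848, against 8.73, 8.61 and 8.72 with saline. In wild-type cells it was at 9.30, 9.34 and 9.18 with R848, against 8.82, 8.85 and 8.83 with saline. All 6 R848 arrays lay above all 6 saline arrays. Spred1 rose by 0.57 ± 0.07 in knockout (adjusted p = 8.51e-06), or 1.48-fold, and by 0.44 ± 0.07 in wild type (adjusted p = 0.000114), or 1.36-fold.

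Of the ETS factors, Etv5 fell on the row used. It read 6.37, 6.16 and 6.32 in knockout cells with R848, against 7.71, 7.90 and 7.53 with saline, and 6.69, 6.23 and 6.19 in wild-type cells with R848, against 8.36, 8.18 and 7.70 with saline. The differences were -1.43 ± 0.16 in knockout (SE, limma adjusted p = 4.05e-06) and -1.71 ± 0.16 in wild type (adjusted p = 6.89e-07), which leaves 0.371 and 0.306 times the saline level. The second Etv5 row, with a mean of 4.65 against 7.11 for the row used, did not show this: its differences were -0.06 and -0.05 and its R848 and saline arrays overlapped in both genotypes. The calls for Etv5 therefore rest on 1 of its 2 rows, and which part of the gene each row reads is not given in the sources used here. Etv4 lay between 4.19 and 4.57 on all arrays, near the limit for dim rows of 4.31 to 4.35. It differed by 0.04 (95% interval -0.16 to 0.24) in knockout and 0.02 (-0.19 to 0.22) in wild type, and its groups overlapped.

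Ccnd1 had the largest R848 change of the members in both genotypes. Its levels were 7.87, 7.71 and 8.25 in knockout cells with R848, against 9.35, 9.78 and 9.85 with saline. In wild-type cells they were 7.90, 8.19 and 8.08 with R848, against 9.90, 10.08 and 10.14 with saline. The R848 arrays of both genotypes lay more than 1 log2 unit below every saline array. The differences were -1.72 ± 0.15 in knockout (SE, limma adjusted p = 1.94e-07), leaving 0.304 times the saline level, and -1.98 ± 0.15 in wild type (adjusted p = 4.48e-08), leaving 0.253 times. By size of change Ccnd1 ranked 356 of 14079 genes in knockout and 221 in wild type. Phlda1, a pleckstrin homology-like domain protein induced by growth factors, went the other way. It was at 7.03, 6.71 and 7.02 in knockout cells with R848, against 5.99, 5.57 and 5.55 with saline, and at 7.56, 7.03 and 7.00 in wild-type cells with R848, against 5.92, 5.80 and 5.58 with saline. All R848 arrays were above all saline arrays, and the rise was 1.22 ± 0.16 in knockout (adjusted p = 1.57e-05), or 2.32-fold, and 1.43 ± 0.16 in wild type (adjusted p = 3.34e-06), or 2.69-fold.

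**Figure D2:**
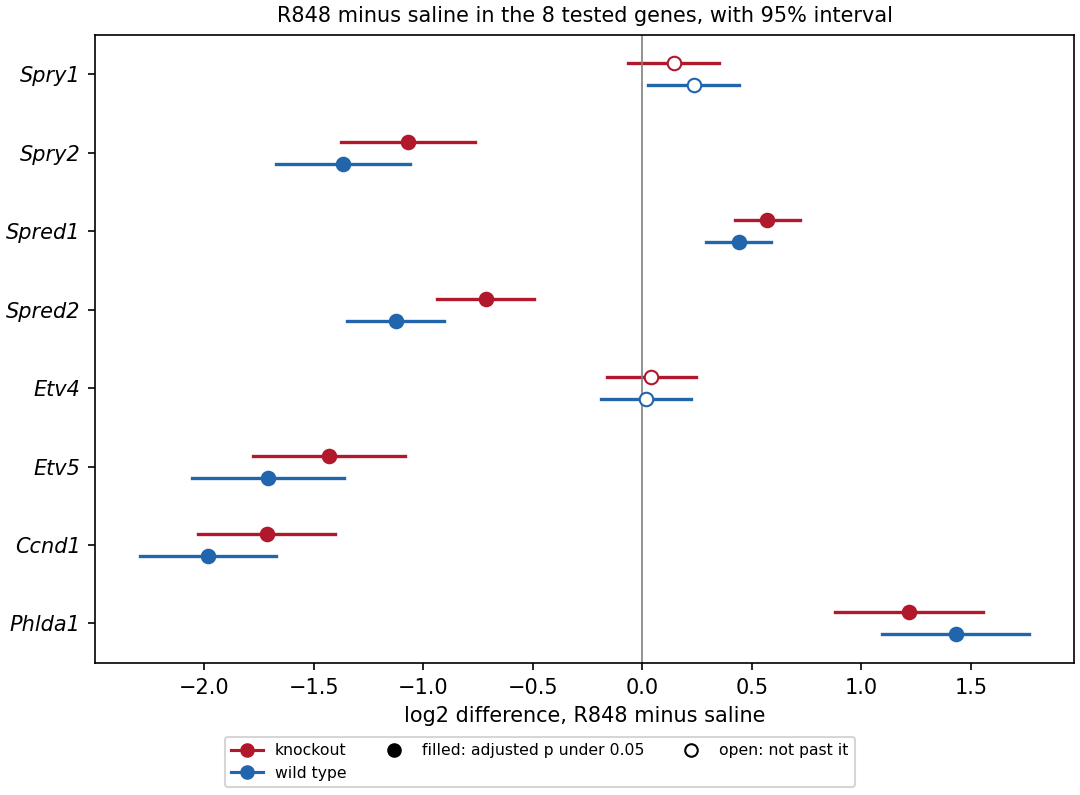
Log2 difference between R848 and saline arrays for the 8 tested genes (points) with 95% intervals from limma (lines), in knockout (red) and wild-type (blue) cells. Filled points passed an adjusted p of 0.05. Spry2, Spred2, Etv5 and Ccnd1 lie left of 0, and Spred1 and Phlda1 right of it, in both genotypes.

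Whether the knockout shifts these genes was asked in each treatment. The targeted gene itself, Rasgef1b, which encodes an activator of small GTPases of the Ras family, read 9.45, 8.60 and 9.36 in knockout cells with R848, against 9.84, 9.84 and 9.69 in wild-type cells with R848. With saline it read 8.63, 7.88 and 8.72 in knockout cells, against 9.03, 9.19 and 9.14 in wild-type cells. Knockout arrays were lower in both treatments, but by differences that did not pass: -0.65 with R848 and -0.71 with saline (limma adjusted p = 0.333 and 0.158). Averaged over treatments the difference of -0.68 passed (adjusted p = 0.036). Signal remained and rose with R848, by 0.73 in knockout and 0.67 in wild type (adjusted p = 0.0125 and 0.0212). Where the row lies relative to the deleted part is not stated, so it checks the labels only in part.

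With R848, 0 of 8 members passed the threshold between knockout and wild-type cells, where 0.135% of tested genes did. None of the 8 had groups that did not overlap, against 13.8% of tested genes, and 0 had an unadjusted p under 0.05, against 8.74%. Of the 8 values 7 were negative, with a median of -0.08 beside -0.02 over all tested genes. Phlda1 had the largest difference, -0.28 (95% interval -0.61 to 0.06). Spry2 differed by -0.20 (-0.50 to 0.11), Ccnd1 by -0.11 (-0.43 to 0.20), Etv5 by -0.09 (-0.43 to 0.26) and Spred2 by 0.11 (-0.11 to 0.33). Spred1, with -0.02 (-0.16 to 0.13), had the narrowest interval. Leaving out 1 array at a time, Phlda1 ranged from -0.375 to -0.095 and Spry2 from -0.277 to -0.095, both nearest to 0 without wild-type R848 replicate 1.

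With saline, 0 of 8 passed either, where 0.334% of tested genes did, although 7 of the 8 values were negative. The median of the 8 was -0.22, beside -0.01 over all tested genes, and 4 of them, Spry2, Spred2, Etv5 and Ccnd1, had an unadjusted p under 0.05, against 12.6% of tested genes. Spry2 differed by -0.49 ± 0.14 (SE, limma adjusted p = 0.144), with all 3 knockout arrays below all 3 wild-type arrays. Ccnd1 (-0.38, adjusted p = 0.279) and Spred1 (-0.15, adjusted p = 0.4) had groups that did not overlap either, which makes 3 of 8, against 16.1% of tested genes. Without knockout saline replicate 1, the lowest saline array for both, the differences were -0.29 for Spry2 and -0.225 for Ccnd1. Etv5 differed by -0.37 (adjusted p = 0.367) and Spred2 by -0.30 (adjusted p = 0.223), with overlapping groups. The intervals leave room for differences of -0.80 to -0.19 in Spry2 and -0.69 to -0.07 in Ccnd1. Beside this, the mean level of 11 macrophage markers was 10.70 to 10.76 on the knockout saline arrays and 10.55 to 10.68 on the wild-type saline arrays. The part of that shift in the differences above was not tested. Averaged over treatments, 0 of 8 passed (limma, where 1.78% of tested genes did), Spry2 coming nearest at -0.34 ± 0.10 (adjusted p = 0.103).

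The difference between the R848 responses was tested directly as the interaction, knockout response minus wild-type response. It was past the threshold for 0 of 8 members, where 0.0142% of tested genes passed, and 1 of 8 had an unadjusted p under 0.05, against 4.93%. That gene was Spred2, whose fall was smaller in knockout cells by 0.41 (95% interval 0.10 to 0.72, limma adjusted p = 0.965). Spry2 (0.30, interval -0.14 to 0.73), Etv5 (0.28, -0.21 to 0.77) and Ccnd1 (0.27, -0.17 to 0.71) also had positive values that did not pass. Without knockout saline replicate 1 the values were 0.0967 for Spry2 and 0.112 for Ccnd1, and without wild-type saline replicate 1 the value was 0.14 for Etv5. For Phlda1 the interaction was -0.21 (-0.69 to 0.26) and for Spred1 0.13 (-0.08 to 0.34). The interaction uses the same saline arrays as the saline genotype difference, so the levels on those arrays enter both. At 3 arrays a group these intervals do not show that the genotypes respond alike.

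**Figure D3:**
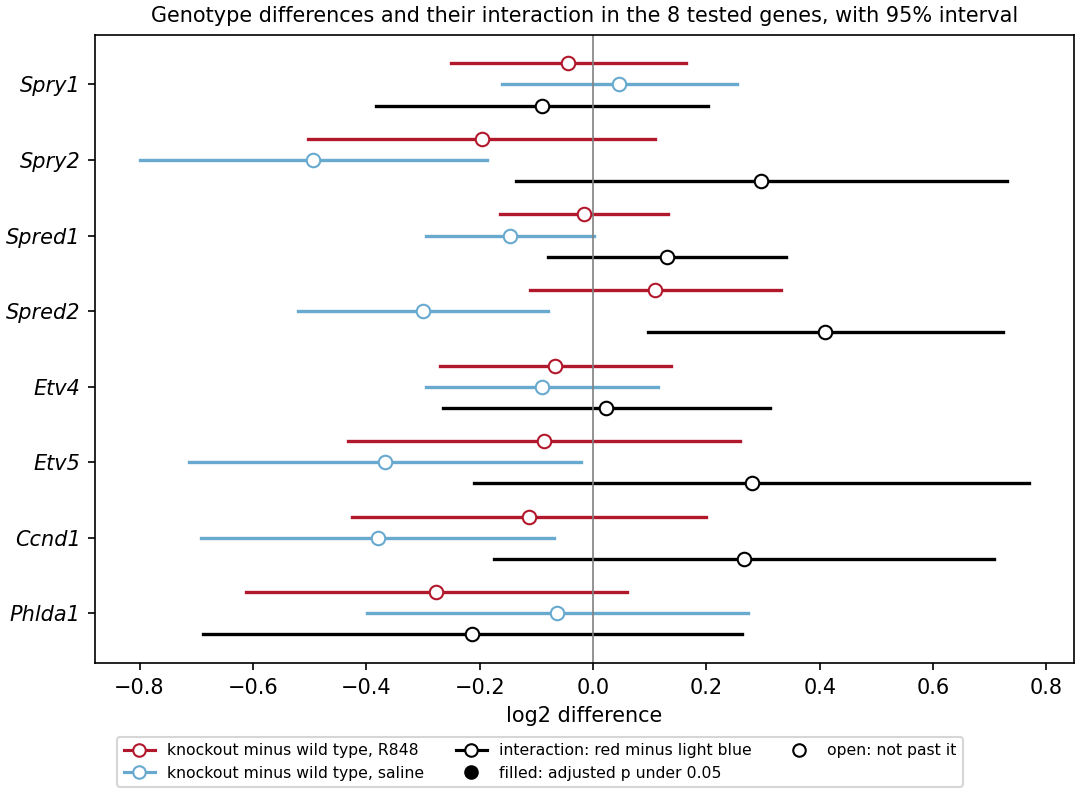
Log2 difference between knockout and wild-type cells with R848 (red) and with saline (light blue), and the interaction, the first minus the second (black), for the 8 tested genes with 95% intervals from limma. All points are open, since none passed an adjusted p of 0.05, and the saline values of Spry2, Spred2, Etv5 and Ccnd1 lie left of 0 with their intervals.

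Between the groups, the levels of Spry2, Etv5 and Ccnd1 had 1 order: knockout R848 lowest, then wild-type R848, knockout saline and wild-type saline. For all 3 the R848 groups of the genotypes overlapped, and wild-type R848 did not overlap knockout saline. The saline groups of the genotypes overlapped for Etv5 and not for Spry2 and Ccnd1. Spred2 had wild-type R848 (5.55 ± 0.11, SD, n = 3) below knockout R848 (5.66 ± 0.13), the other order, with overlapping arrays. For Spred1, the order from low to high was knockout saline, wild-type saline, knockout R848 and wild-type R848, and for Phlda1 it was the same. Genotypes overlapped within each treatment for Phlda1, and for Spred1 with R848 but not with saline.

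Across the 12 arrays, the genes most like each member by Pearson r were mostly ones that follow the split between R848 and saline, which all points share. For Ccnd1 they were Bin3 (r = 0.996) and the DNA replication licensing genes Cdt1 (0.9886) and Mcm2 (0.9866). For Spred2 they were Etv5 (0.9798), Map3k9 (0.978) and Pitpnc1 (0.9751), and for Spry2 Sdhb (0.9711), Etv1 (0.97), another PEA3-group factor, and Prkdc (0.9688). Bcar3 (0.987), Efr3b (0.9862) and Gpr183 (0.9851) were nearest to Etv5. Those nearest to Phlda1 were Map3k6 (0.9909), Mmp9 (0.9852) and Furin (0.9851), and to Spred1 Ppfibp1 (0.9908), Kpna4 (0.9884) and Tnip3 (0.9881). The nearest to Spry1 were Usp15 (0.9078), Srsf3 (0.8924) and Tbx10 (0.8922), and to Etv4 Swsap1 (0.8945), 1500015A07Rik (0.8776) and Slc10a4 (0.8751), both lower than for the other members.

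Other genes of the pathway also moved both ways with R848. Of 25 further ERK output genes 20 were tested, and 6 rose and 7 fell in knockout cells and 6 rose and 8 fell in wild-type cells (limma adjusted p under 0.05), with medians of -0.11 and -0.14. Of all tested genes, 15.6% rose and 26.0% fell in knockout cells, and 14.6% rose and 23.6% fell in wild-type cells. The medians over all tested genes were -0.03 and -0.02. Dusp6, a phosphatase that inactivates ERK, changed by -3.57 in knockout and -3.34 in wild type, and Etv1 by -1.18 and -1.43. The early response gene Ier3 rose by 3.45 and 3.44, and Plaur, the urokinase receptor, by 1.29 and 1.37. In the genotype contrast averaged over treatments 3 of the 20 passed, where 1.78% of all tested genes did. They are named after their values were seen: Spry3, at 0.30 ± 0.06 (adjusted p = 0.0299), Ier3, at -0.37 ± 0.08 (adjusted p = 0.035), and Myc, at -0.40 ± 0.09 (adjusted p = 0.036). None of the 3 passed when arrays of the same number were treated as correlated (adjusted p = 0.0662, 0.0729 and 0.0717), and without 1 array each Spry3 passed in 3 of 12 fits, Ier3 in 4 and Myc in 5. Ier3 also missed the threshold with cyclic loess (adjusted p = 0.0571). Spry3 was above the limit for dim rows on 6 of 12 arrays. With R848 it lay below that limit, at 3.79 to 4.07 in knockout cells and 3.64 to 3.71 in wild-type cells. Its averaged genotype contrast is therefore read in part from dim arrays, and the stricter filter removed it. The R848 change of Spry3 was -1.03 in knockout and -0.92 in wild type.

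Upstream, 25 of 34 genes from receptor to kinase were tested, and 11 rose and 5 fell in knockout cells and 11 rose and 4 fell in wild-type cells, with medians of 0.07 and 0.11. The shares of all tested genes were 15.6% higher and 26.0% lower in knockout cells, and 14.6% and 23.6% in wild-type cells. Csf1, the ligand of the CSF1 receptor, rose by 2.40 in knockout and 2.01 in wild type, and Map3k8 by 1.86 and 1.94. Mknk2, a kinase that ERK activates, changed by -2.53 and -2.37, and the adaptor Gab3 by -1.77 and -1.52. Of 12 Sprouty and Spred partners 11 were tested, and 4 rose and 2 fell in each genotype. Rasa1, a Ras GTPase-activating protein, changed by -1.65 in knockout and -1.85 in wild type, while Cav1 (0.75 and 1.08), the ubiquitin ligase gene Siah2 (0.90 and 0.78) and the protein kinase gene Prkcd (0.61 and 0.58) rose. The medians of the 11 tested partners were -0.09 and -0.10, beside -0.03 and -0.02 over all tested genes.

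All 12 genes of a list of ETS-family factors and Capicua with its partners were tested. In knockout cells 5 rose and 5 fell, and in wild-type cells 5 rose and 4 fell, with medians of -0.19 and -0.10. Beside this list and the next, 15.6% of tested genes rose and 26.0% fell in knockout cells, and 14.6% and 23.6% in wild type. Ets2 rose by 2.04 and 1.66, the repressor Etv3 by 1.67 and 1.64 and the repressor Etv6 by 1.67 and 1.40, while Elk3 changed by -0.51 and -0.85. Of 16 partners of cyclin D in G1 15 were tested, 3 rose and 10 fell in knockout cells and 3 rose and 9 fell in wild-type cells, with a median of -0.62 in each. Ccnd2, which encodes another D cyclin, rose by 1.72 in knockout and 1.16 in wild type, opposite to Ccnd1. Cdkn2c, a CDK4 and CDK6 inhibitor, changed by -1.33 and -1.49, Rb1 by -1.21 and -1.11 and its relative Rbl1 by -0.96 and -1.26. Averaged over treatments, where 1.78% of all tested genes passed, 1 of the 15, Cdk2, was lower in knockout cells (-0.32 ± 0.07, limma adjusted p = 0.0431). It was named after its value was seen. Cdk2 passed under 6 of 11 other settings, not with correlated pairs (adjusted p = 0.072), and in 2 of the 12 fits that leave out 1 array. In the 5 lists, 0 genes passed in either single-treatment genotype contrast or in the interaction. Of all tested genes, 0.334% passed between genotypes with saline, 0.135% with R848 and 0.0142% in the interaction.

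**Figure D4:**
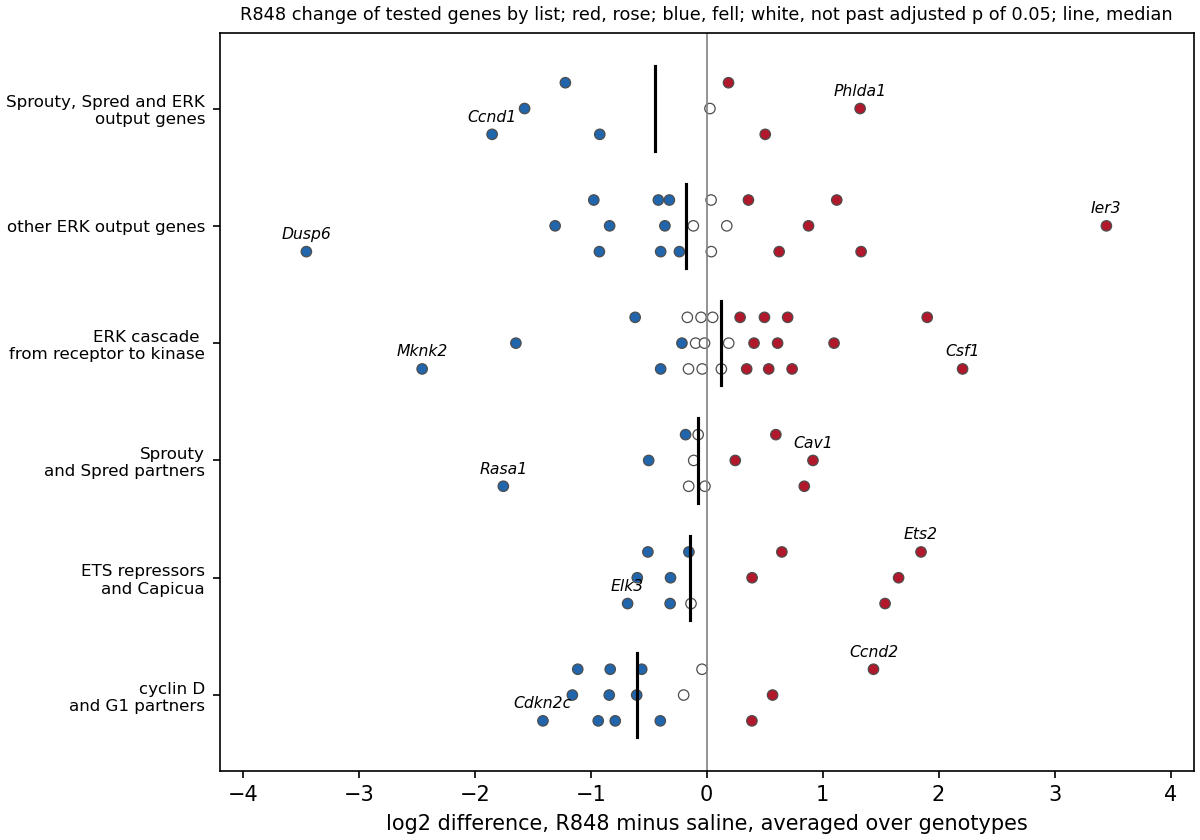
Log2 difference between R848 and saline, averaged over genotypes, for each tested gene of the 9 members and of 5 lists of related genes (points). Red points rose and blue points fell at an adjusted p under 0.05, white points did not pass, and black lines are medians. The largest changes, Ier3 at 3.45 and Dusp6 at -3.45, are ERK output genes that lie on opposite sides.

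As a check of the cell type, 11 of 12 macrophage markers had a row, and all 11 lay above the limit for dim rows on all 12 arrays, Csf1r among them. Of other cell types, markers above the limit on no array numbered 4 of 5 for B cells, 4 of 7 for T and NK cells, 5 of 9 for neutrophils, 4 of 6 for mast cells and basophils, 2 of 8 for dendritic cells and 3 of 8 for fibroblasts and stromal cells. The dendritic cell mean was 5.43 to 5.595 with R848 and 5.449 to 5.541 with saline in knockout cells, and 5.409 to 5.525 with R848 and 5.268 to 5.526 with saline in wild-type cells. The stromal mean was higher with R848, at 4.519 to 4.629 against 4.43 to 4.445 with saline in knockout cells and 4.531 to 4.559 against 4.43 to 4.505 in wild-type cells. Of the 5 stromal markers tested, 1 rose and 4 did not pass in each genotype (limma adjusted p under 0.05). With R848 the mean of the macrophage markers was lower, at 10.44 to 10.52 against 10.70 to 10.76 with saline in knockout cells and 10.40 to 10.46 against 10.55 to 10.68 in wild-type cells. Of the 11, 2 rose and 5 fell in knockout cells and 2 rose and 4 fell in wild-type cells (limma adjusted p under 0.05). Beside this, 15.6% of tested genes rose and 26.0% fell in knockout, and 14.6% and 23.6% in wild type. The largest falls were in Mertk (-1.92 in knockout and -1.79 in wild type) and Mrc1 (-0.78 and -0.76). Cd14 (0.66 and 0.67) and Adgre1 (0.22 and 0.32) rose. The mean of 6 endothelial markers was higher with R848, at 4.397 to 4.493 against 4.118 to 4.265 in knockout and 4.332 to 4.425 against 4.203 to 4.31 in wild type. Of these 6, Tek, Cldn5 and Emcn lay at or below the limit on all arrays. The part of these marker shifts in the changes above was not tested.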

How the data were processed

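RNA of 12 samples was hybridized to array strips after amplification and biotin labelling, per the labels' protocols. The deposited values are log2 intensities made with Affymetrix Expression Console and RMA (background correction, quantile normalization, probe summary), per the submitters' processing notes. The sources used here give no versions. RMA gives all arrays nearly the same distribution, so a change in total RNA is not visible, and differences of dim rows are compressed. Strip positions and dates of the arrays were not used here, and any batch that ran along the groups cannot be told apart from them. The number of arrays limits the precision.

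Of 34472 rows, 23521 had 1 gene symbol, 1814 several and 9137 none in the platform table. Only the first kind was named, and 23328 of those matched a RefSeq gene (GRCm38.p6) by Entrez number. A gene was tested if its row exceeded the 40th percentile of named rows (the limit for dim rows, 4.31 to 4.35) on at least 3 arrays. Groups came from the sample titles. All 12 arrays entered 1 limma 3.58.1 model (run in R 4.3.3 with lmFit, then eBayes) that had 1 mean for each group. The p-values were adjusted by Benjamini-Hochberg over 14079 genes in each contrast, with a threshold of 0.05. Intervals of 95% use the moderated spread. The fit was tested on simulated data. Residuals of knockout R848 and knockout saline arrays of the same number correlated by 0.272, 0.172 and 0.275, all above 0.1. These numbers were therefore taken as pairs in alternative fits only, from the data and not the labels. The model above had no term for pairs, so its errors and p-values do not use them. Arrays of different numbers were not correlated for comparison. In wild-type cells the values were 0.252, -0.0568 and 0.23, so number 2 did not reach 0.1. Between genotypes the same numbers correlated by -0.211 to 0.328, so the numbers do not mark knockout pairs alone. The fits with pairs or a block grouped wild-type arrays by number as well.

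The members, the gene lists, the motifs and the rule for naming were chosen with earlier results of these data known. The rule names all members, Rasgef1b, up to 4 genes per list with the largest R848 change averaged over genotypes, and the 3 genes most correlated with each tested member. Alternatives covered the spread model, filters, normalization, the arrays fitted, pairing, array weights, a minimum change, the other Etv5 row and leaving out each array.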

Additional observations from a re-analysis of the deposited data

Results flagged for a closer look

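Dusp5, an ERK phosphatase gene of the list of further ERK output genes, differed between genotypes in opposite directions in the 2 treatments. With R848 every knockout array lay above every wild-type array (means of 5.67 and 5.35), and with saline every knockout array lay below every wild-type array (means of 5.70 and 6.15). Of all tested genes, 13.8% had genotypes that did not overlap with R848 and 16.1% with saline. The share with both in opposite directions was not computed. The interaction was 0.77, which did not pass the threshold (limma adjusted p = 0.409). It was found by comparing the arrays of all tested genes of the lists after their values were known, and none of the 8 tested members showed such a pattern.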

How the results depend on the processing

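The R848 calls of Spry2, Spred1, Spred2, Ccnd1 and Phlda1 kept their direction under every alternative run, and their adjusted p stayed under 0.05 in each, though not every change reached 1 on the log2 scale. Leaving out each array gave 6 members called in knockout each time, 6 to 7 in wild type, 6 to 7 averaged over genotypes, and 0 in the 3 genotype contrasts and the interaction. Requiring a log2 change of at least 1 left 4 members in knockout, where Spred1 and Spred2 changed less, 5 in wild type, where Spred1 did, and 4 averaged over genotypes, where Spred1, Spred2 and Spry1 did. Of 14079 tested genes, it left 1086 in knockout, 1014 in wild type and 1043 averaged. The second Etv5 row ended the Etv5 calls (-0.06 in knockout, -0.05 in wild type, -0.055 averaged) and turned its genotype values to 0.03 with saline, 0.02 with R848 and 0.025 averaged, and its interaction to -0.01. The averaged Spry1 call ended with median centring of all rows (0.165, adjusted p = 0.0734). Median centring over the tested genes, chosen after seeing the data, moved the median of all genes to 0.117 in knockout and 0.107 in wild type, and the share of calls that were higher to 63.6% from 37.4% and to 62.2% from 38.3%. It called Spry1 in both genotypes (0.29 and 0.36) and Etv4 averaged (0.165, adjusted p = 0.0494), relative to that shift. Cyclic loess called Spry1 in wild type as well.

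Values that did not pass with the settings of the results above changed sign as follows. The Spry1 genotype average became -0.0183 with median centring and -0.0116 with array weights. The Spred1 genotype difference with R848 became 0.0404 with cyclic loess and 0.0233 with centring over tested genes, and the Etv4 interaction -0.0417 with array weights. Without 1 array each, the genotype difference with R848 ranged from -0.27 to 0.0033 for Ccnd1, -0.18 to 0.0733 for Etv5 and -0.0633 to 0.0167 for Spred1. With saline it ranged from -0.21 to 0.0133 for Phlda1 and -0.0683 to 0.12 for Spry1, whose average ranged from -0.0558 to 0.0392 and interaction from -0.165 to 0.025. For Etv4 the ranges were -0.0617 to 0.12 (interaction), -0.0833 to 0.10 (R848 in wild type), -0.02 to 0.095 (R848 in knockout) and -0.0217 to 0.0708 (R848 averaged).

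The replicate number was also used as a block. For the R848 contrasts and the interaction the block was the number within each genotype. For the genotype contrasts it was the number shared by both genotypes. With these blocks, 6 members passed in knockout, 6 in wild type, 7 averaged and 0 in the others, so the block changed no call of a member. Of all tested genes, 6268 passed with the block in knockout, 5804 in wild type and 7355 averaged. Treating the pairs as correlated in place of the block called Spry1 in wild type (limma adjusted p = 0.046). Wild-type number 2 did not meet the rule for pairs, with a correlation of -0.0568. Over all tested genes the block shared by both genotypes moved the genotype count with saline to 99 from 47 and that averaged over treatments to 402 from 251. The averaged count was 393 with array weights and 118 with correlated pairs, and the saline count was 31 with no filter and 8 in a fit of only the arrays compared. Depth is not defined for arrays: Spry4 and Etv4 lie near background, where differences are compressed.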
